A study of Mus musculus with 2 samples.

Results

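The values below concern 9 genes by which blood stem and progenitor cells of the mouse are recognised: Procr, Ly6a, Esam, Slamf1, Kit, Flt3, Cd34, Cd48 and Fgd5. They were chosen by name, with earlier results of these data known, and are 9 of the 53273 genes that could be read from the deposited tables. Counts came from 192 single bone marrow cells of 8-week-old C57BL/6 mice that carry the Fucci cell cycle reporter, in which an orange protein (mKO2) marks cells of G0 and G1 and a green protein (mAG) marks cells in S, G2 and M. Each of 4 sort gates (mKO2high, mKO2low, mKO2neg and mAG+) held 48 cells. The mKO2high and mKO2low cells formed one library and the mKO2neg and mAG+ cells the other. The labels give neither the surface proteins used in the sort nor the number of animals, so each gate is 1 sample without replicates and no test was possible.

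Kit and Flt3 are receptor tyrosine kinases for the cytokines KIT ligand and FLT3 ligand. Kit is carried by stem and early progenitor cells alike, and Flt3 appears as cells leave the stem cell state toward multipotent and lymphoid progenitors. Procr encodes EPCR, the receptor of protein C, and Slamf1 encodes CD150. Esam encodes an adhesion molecule shared with endothelium, and Ly6a encodes Sca-1. High EPCR, CD150, ESAM and Sca-1 are used to enrich stem cells, while CD48 and, in adult mice, high CD34 and FLT3 mark their progeny. Fgd5 differs from the others in kind: its protein is an exchange factor inside the cell, and it is used as a stem cell reporter locus.

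The gene labels of the deposited tables were displaced, so each gene was read from the row of the gene just before it in GENCODE M21 order among the genes in the file. Read in this way, protein-coding genes held 92.6% of counts, against 48.8% to 53.1% at other offsets from 3 rows before to 3 rows after the label. The 12 housekeeping genes looked up held 316434 counts, against 1875 under their own labels. The 9 genes held 6450 counts, against 672 under their own labels. On the chromosomes of the 9 genes the protein-coding share was 92.3% to 98.3%, against 35.7% to 63.3% under the labels. A symbol below therefore means the gene after re-reading. The row that carries the label Slamf1, for example, holds 585 counts that are read as those of Cd84.

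Depth differed between gates. The mKO2high gate had 934036 counts in all, the mKO2low gate 1703263, the mKO2neg gate 1608630 and the mAG+ gate 2791584. The median cell had 14510 counts in mKO2high and 45177 in mAG+. Levels are therefore given as CPM, the counts scaled to a common total per gate (counts per 1e+06). Shares of cells are also given with every cell thinned to 5000 counts, which leaves 39, 48, 43 and 45 cells of the gates in the order mKO2high, mKO2low, mKO2neg, mAG+. Intervals are exact 95% intervals and cover counting error only: reads without known molecular identifiers are not independent molecules, and animals, sorts and plates are not in them. A gate sum cannot tell fewer expressing cells from less RNA per cell, and shares of cells are given beside it for that reason.

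The reporter gates were checked against genes of dividing cells. Mki67 had 4, 9, 108 and 1864 counts and Top2a had 4, 79, 259 and 3934 in mKO2high, mKO2low, mKO2neg and mAG+. Both were highest in mAG+. Cd3e of T cells, Cdh5 of endothelium and Lepr of stroma had no count in any cell. Other genes of these cell types did: Tie1 of endothelium in 20 to 32 cells a gate, Nkg7 of T and NK cells in 0 to 12 and Col1a2 of stroma in 1 to 6. Some genes of B cells and neutrophils lay mostly in single cells, while Prtn3 and Cd79b of the same lists were spread over 29 to 44 and 14 to 28 cells a gate. Of 67 Cd79a counts in mAG+, 65 lay in 1 cell, which also held 126 of 130 Ebf1 counts and 104 of 106 Vpreb1 counts. Neutrophil granule genes were concentrated in 1 mKO2neg cell, with 577 of the gate's 605 Camp counts, and in 1 mAG+ cell, with 290 of its 327 S100a8 counts. Results for the 9 genes without these 3 cells, chosen after their values were seen, are given where a call is lost, and for Flt3.

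Sequences just before the RefSeq start sites are shown for 3 genes whose levels took different courses over the gates: Procr, which was lowest in mAG+, Kit, which differed by less than 2-fold between any of the gates compared, and Flt3, which was higher in the mKO2neg and mAG+ library. RefSeq (build GRCm38.p6) gave this region for 7 of the 9 genes. Each line holds the 250 bases before the start, 5′ to 3′ on the gene's strand, at chr2:155750967-155751216 (plus strand) for Procr, chr5:75574737-75574986 (plus strand) for Kit and chr5:147400490-147400739 (minus strand) for Flt3. The Procr and Kit windows end past the GENCODE starts of these genes, given below, so their last bases lie within the genes as counted. Capitals mark matches to any of 4 short motifs.
Procr: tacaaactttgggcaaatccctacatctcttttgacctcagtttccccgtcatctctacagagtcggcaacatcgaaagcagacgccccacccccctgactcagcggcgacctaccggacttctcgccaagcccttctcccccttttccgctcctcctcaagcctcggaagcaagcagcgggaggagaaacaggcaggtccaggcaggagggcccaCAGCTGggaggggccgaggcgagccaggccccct
Kit: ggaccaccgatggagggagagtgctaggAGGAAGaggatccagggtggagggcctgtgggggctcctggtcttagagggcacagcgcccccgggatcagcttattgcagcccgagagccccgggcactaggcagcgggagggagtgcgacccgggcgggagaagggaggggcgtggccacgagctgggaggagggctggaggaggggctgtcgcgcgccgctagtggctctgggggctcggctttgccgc
Flt3: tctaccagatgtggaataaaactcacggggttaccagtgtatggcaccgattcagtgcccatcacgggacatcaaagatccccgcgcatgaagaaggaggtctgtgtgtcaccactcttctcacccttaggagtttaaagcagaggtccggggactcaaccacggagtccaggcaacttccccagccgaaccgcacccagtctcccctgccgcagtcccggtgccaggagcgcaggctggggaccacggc
The motif of ETS factors was AGGAAG, that of RUNX factors TGTGGT, that of GATA factors AGATAA and the E-box CAGCTG, each searched on both strands. No matches of different motifs overlapped in these windows. Procr held 1 E-box, which lay past the GENCODE start of the gene. This motif was found in 12.8% of 27025 promoter windows of this length. Kit held 1 ETS motif, found in 29.2% of them, and Flt3 held none of the 4. Among the other genes, Slamf1, Fgd5 and Cd34 each held 1 ETS motif, and Cd48 held 1 RUNX motif, found in 14.2% of windows. The GATA motif, in 10.3% of windows, was in none of the 7. These are matches of letters and describe no binding.

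Procr lies at chr2:155751117-155755471 (plus strand, GRCm38). By gate sum it was lower at each step from mKO2high to mAG+, and of the 2 genes of which this holds, it and Ly6a, it had the wider range. The mKO2high level was 315 CPM (95% interval 280 to 353), the mKO2low level 169.7 (151 to 190.4), the mKO2neg level 149.8 (132 to 170.0) and the mAG+ level 56.6 (48.1 to 66.1). Only the neighbours mKO2low and mKO2neg, which are in different libraries, had overlapping intervals, and without the deepest cells their log2 ratio of -0.18 turned to 0.04. Within the first library mKO2low was lower than mKO2high by a log2 ratio of -0.89 (-1.13 to -0.65). Within the other, mAG+ was 2.63-fold lower than mKO2neg (log2 ratio -1.40, -1.70 to -1.11).

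Single cells gave the same order for Procr. The median mKO2high cell had 301 CPM, the median mKO2low cell 94.5, the median mKO2neg cell 24.6 and the median mAG+ cell 10.1. A Procr count was found in 35 of 48 mKO2high cells (72.9%), 28 mKO2low cells (58.3%), 25 mKO2neg cells (52.1%) and 26 mAG+ cells (54.2%). Thinned to 5000 counts, the shares were 61.5% (44.6 to 76.6), 39.6% (25.8 to 54.7), 34.9% (21 to 50.9) and 17.8% (8.0 to 32.1). Equal depth thus set mAG+ apart from mKO2high, with intervals that do not overlap, while the shares at each cell's own depth did not. One mAG+ cell held 31.0% of the gate's Procr counts. Without the cell of highest CPM in each gate, the log2 ratio of mAG+ to mKO2neg was -1.60.

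**Figure D1:**
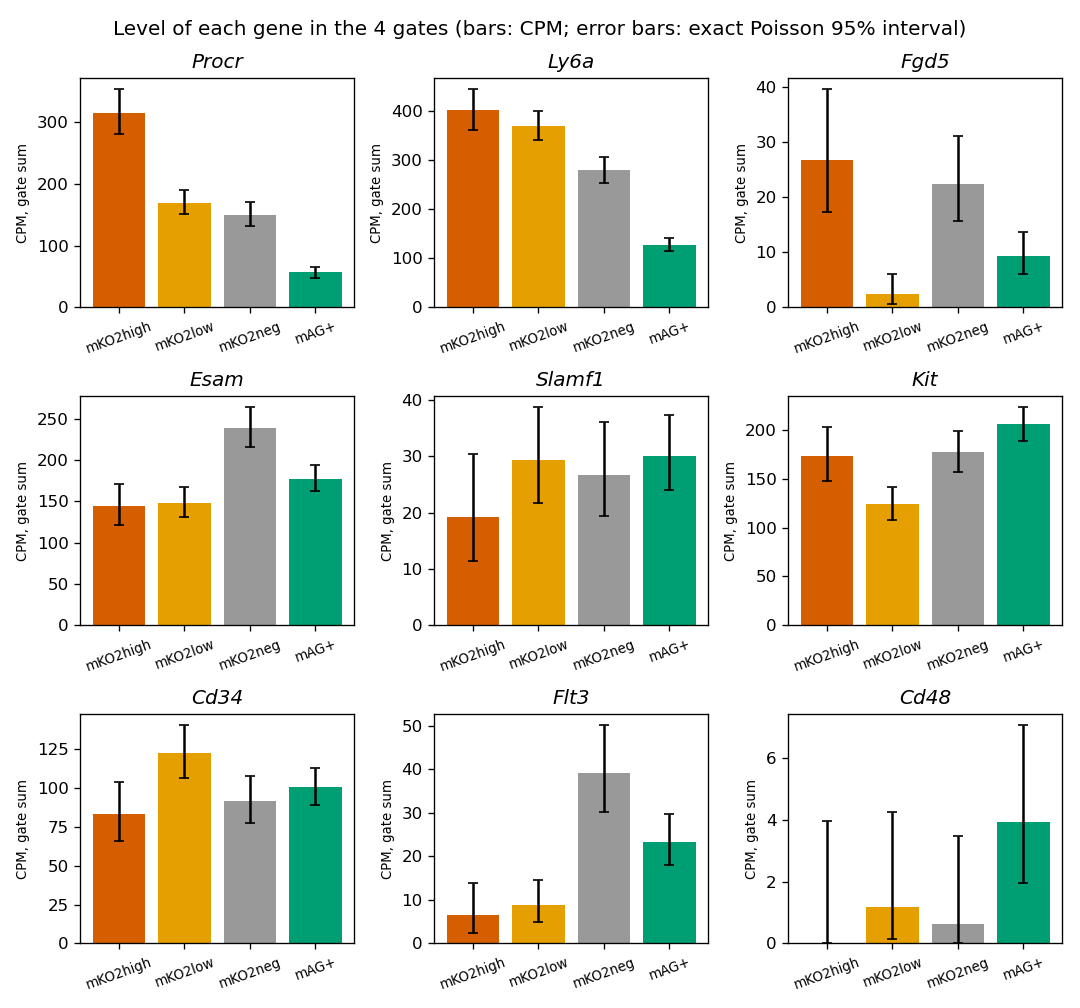
Level of each of the 9 genes in the 4 gates, as CPM of the gate's summed counts (bars, linear axis from 0, scaled separately for each gene) with exact Poisson 95% intervals (error bars). Procr and Ly6a are lowest in mAG+, at 56.6 and 127 CPM, and Cd48 is below 4 CPM in all gates.

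Ly6a (chr15:74994877-74998031, minus strand) followed Procr only in part. The level of mKO2high was 400.4 CPM (361 to 443), that of mKO2low 368 (339.9 to 398), that of mKO2neg 278 (253 to 306) and that of mAG+ 127 (114 to 141). It therefore stayed near its top in mKO2low, with a log2 ratio to mKO2high of -0.12 (-0.31 to 0.07). At 5000 counts a cell this ratio was 0.11, and the median cell had 320 CPM in mKO2low against 227 in mKO2high. In mAG+ Ly6a was 2.19-fold lower than in mKO2neg (log2 ratio -1.13, -1.34 to -0.93). One mKO2neg cell held 19.6% of its gate's Ly6a counts, and 1 mAG+ cell held 18.3% of those of mAG+. Without the cell of highest CPM in each gate the ratio was -0.87. This left out the first of these cells but kept the second. With equal weight for each cell the ratio was -0.80. Both values are short of 2-fold, but it was -1.29 when only cells of at least 5000 counts were weighted equally. Without the 3 cells rich in B cell or neutrophil markers, which held 6 Ly6a counts between them, it was -1.0 and just short of 2-fold.

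Counts of Ly6a were found in 33, 39, 30 and 37 of 48 cells of mKO2high, mKO2low, mKO2neg and mAG+. At 5000 counts a cell the shares were 61.5% (44.6 to 76.6), 75% (60.4 to 86.4), 58.1% (42.1 to 73.0) and 37.8% (23.8 to 53.5). The mAG+ share was lowest, and its interval overlapped those of mKO2high and mKO2neg. The Ly6 family encodes small lipid-anchored surface proteins, and most of its other listed genes had few counts or, for Ly6d, Ly6g and Ly6i, none. Ly6e was at 778, 754, 574 and 780.2 CPM, and so was higher in mAG+ than in mKO2neg (log2 ratio 0.44, 0.33 to 0.56) where Ly6a was lower.

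Fgd5 (chr6:91978878-92076004, plus strand) had few counts. There were 25, 4, 36 and 26 in mKO2high, mKO2low, mKO2neg and mAG+, which is 26.8 CPM (17.3 to 39.5), 2.35 (0.64 to 6.01), 22.4 (15.7 to 31.0) and 9.31 (6.1 to 13.6). The mKO2low gate stood apart from mKO2high, at a log2 ratio of -3.15 (-5.49 to -1.98), and mAG+ was 2.34-fold lower than mKO2neg (-1.23, -2.05 to -0.50). These counts came from 7, 4, 8 and 11 cells at each cell's own depth, which differed between gates. At equal depth 3, 1, 5 and 0 cells kept a count. Numbers this small do not tell fewer positive cells from fewer counts per positive cell. At 5000 counts a cell none of 45 mAG+ cells kept a count, which allows a share of up to 6.67% by the floor of 3 cells and 7.87% by the exact interval. With 9 counts left in mKO2neg, no ratio is given at that depth. Other annotated genes overlap Fgd5, 4930466I24Rik on the opposite strand and Gm44095 on its own, and whether the counting used strand is not given in the sources used here.

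Esam (chr9:37528078-37538319, plus strand) had another order. The mKO2high cells had 145 CPM (121 to 171) and the mKO2low cells 149 (131 to 168), against 239 (215 to 264) for mKO2neg and 178 (162 to 194) for mAG+. The first pair hardly differed (log2 ratio 0.04), and mAG+ was lower than mKO2neg by 1.34-fold (log2 ratio -0.43, -0.62 to -0.23). Cells with a count numbered 27, 30, 40 and 36 of 48, and at 5000 counts the shares were 43.6%, 37.5%, 62.8% and 55.6%. Only mKO2neg stood clear of the others in level, since the intervals of mAG+ and mKO2low overlap. The log2 ratio of mAG+ to mKO2high was 0.30 (0.02 to 0.58) and turned to -0.13 at equal depth. Equal weight for each cell moved the log2 ratio of mAG+ to mKO2neg to -1.83, and to -0.56 when only cells of at least 5000 counts were weighted so. The highest value in mKO2neg, 16949 CPM, came from a cell with only 59 counts of all genes, and the highest in mAG+ was 594. That mKO2neg cell has full weight in the ratio of -1.83 and is left out of that of -0.56. Endothelial cells also express Esam, and the endothelial list summed to 142 to 190 CPM. Of this list Cdh5 was at 0 in every cell, and Tie1 was at 88.9, 97.5, 44.8 and 88.8 CPM.

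Slamf1 (chr1:171767127-171801184, plus strand), the gene of CD150, did not differ between gates beyond counting error. It had 18, 50, 43 and 84 counts in mKO2high, mKO2low, mKO2neg and mAG+, or 19.3 CPM (11.4 to 30.5), 29.4 (21.8 to 38.7), 26.7 (19.3 to 36.0) and 30.1 (24.0 to 37.3). All 4 intervals overlap. The log2 ratio of mKO2low to mKO2high was 0.59 (-0.20 to 1.47) and that of mAG+ to mKO2neg 0.17 (-0.38 to 0.74), so a difference of 2-fold lay inside the first interval and outside the second. Thinned to 5000 counts, where only 2, 5, 5 and 4 cells kept a count, these ratios were 1.50 and 0.83, on 2 to 12 counts a gate.

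**Figure D2:**
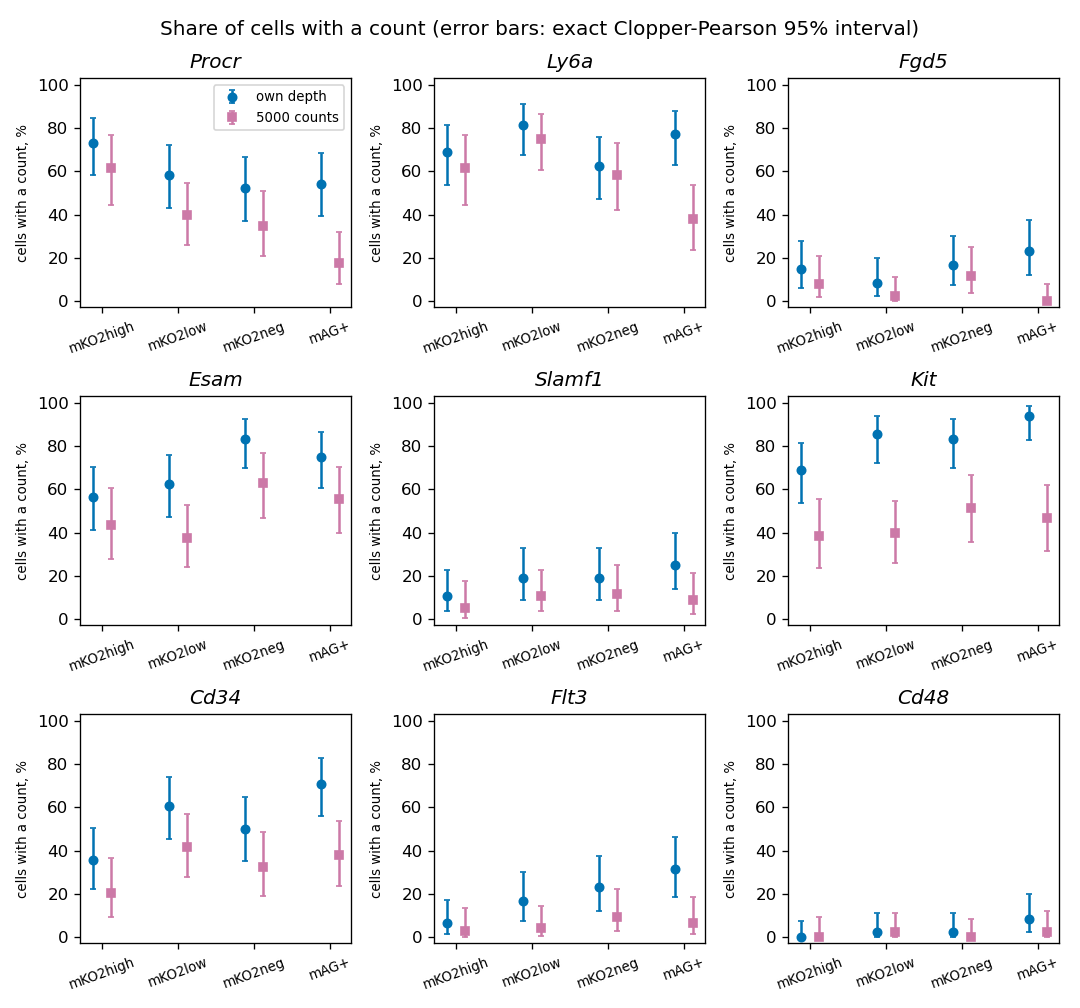
Share of cells with a count of each gene, in percent, by gate. Circles are all 48 cells at their own depth, squares the 39, 48, 43 and 45 cells thinned to 5000 counts, and error bars exact Clopper-Pearson 95% intervals. The Procr share at equal depth goes from 61.5% in mKO2high to 17.8% in mAG+, while the share of Kit goes from 38.5% to 46.7%.

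Kit (chr5:75574916-75656722, plus strand) was present in most cells of every gate. Counts were found in 33 (68.8%), 41 (85.4%), 40 (83.3%) and 45 (93.8%) of 48 cells of mKO2high, mKO2low, mKO2neg and mAG+. At equal depth these shares drew together, to 38.5%, 39.6%, 51.2% and 46.7%, with overlapping intervals. The level was 173 CPM (148 to 202) for mKO2high, 124 (108 to 142) for mKO2low, 177 (157 to 199) for mKO2neg and 205 (189 to 223) for mAG+. By this gate sum only mKO2low stood below the others. The median cell did not follow it, with 84.2 CPM in mKO2high and 91.4 in mKO2low.

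The direction between mAG+ and mKO2neg was not stable for Kit. The log2 ratio of gate sums was 0.21 (0.00 to 0.42). It turned to -0.58 when cells were weighted equally, to -0.56 at 5000 counts a cell and to -0.014 when the deepest cells were left out. Within the other library the ratio of mKO2low to mKO2high was -0.48 (-0.79 to -0.18), and -0.47 at equal depth. It was -0.65 with cells weighted equally and -0.24 when only cells of at least 5000 counts were. The mean of 3.38 Kit counts a cell in mKO2high, the gate with the lowest depth, and of 11.9 in mAG+, the gate with the highest, followed the depth of the cells.

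Flt3 (chr5:147330741-147400489, minus strand), the other receptor kinase, separated the libraries more than the gates within them. It had 6 counts in mKO2high and 15 in mKO2low, against 63 in mKO2neg and 65 in mAG+. The levels were 6.42 CPM (2.4 to 14.0), 8.81 (4.9 to 14.5), 39.2 (30.1 to 50.1) and 23.3 (18.0 to 29.7). Neither interval of the first library reached those of the second, and mKO2neg was 4.23-fold above mKO2low (log2 ratio 2.08, 1.32 to 3.07). Within the libraries, the log2 ratio was 0.41 (-0.99 to 2.11) for mKO2low against mKO2high and -0.74 (-1.27 to -0.23) for mAG+ against mKO2neg.

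Flt3 counts lay in 3, 8, 11 and 15 of 48 cells. At 5000 counts the shares were 2.56%, 4.17%, 9.30% and 6.67%, with overlapping intervals. The library difference in level thus came with more counts in a minority of cells: single cells held up to 15 counts in mKO2neg and 18 in mAG+, and at most 3 in the other gates. Neither the mAG+ cell with B cell transcripts nor the mAG+ cell with S100a8 had a Flt3 count, and the mKO2neg cell with Camp had 6. Leaving out these 3 cells, mKO2neg against mKO2low was 1.97 and mAG+ against mKO2neg -0.48. The gene Gm26597 overlaps Flt3 on the opposite strand.

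Cd34 (chr1:194938819-194961279, plus strand), a sialomucin, had a level of 83.5 CPM (66.0 to 104) for mKO2high, 123 (107 to 140.5) for mKO2low, 92.0 (77.8 to 108) for mKO2neg and 101 (89.2 to 113) for mAG+. In mKO2low it was above mKO2high by a log2 ratio of 0.55 (0.17 to 0.95), and mAG+ and mKO2neg did not differ beyond counting error (0.13, -0.16 to 0.43). Cells with a count numbered 17, 29, 24 and 34 of 48, and at equal depth the shares were 20.5% (9.3 to 36.5), 41.7% (27.6 to 56.8), 32.6% (19.1 to 48.5) and 37.8% (23.8 to 53.5). The mKO2high share was lowest on both scales, with intervals that overlap at equal depth. Gm16897 overlaps Cd34 on the opposite strand. Of its relatives, Podxl had 9, 26, 0 and 6 counts and Podxl2 had 0, 0, 0 and 6.

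Cd48 (chr1:171682009-171705258, plus strand), the SLAM family gene that marks more mature progenitors, was nearly without counts. There were 0, 2, 1 and 11 counts in mKO2high, mKO2low, mKO2neg and mAG+, in 0, 1, 1 and 4 of 48 cells. No count in 48 mKO2high cells allows a share of cells with a count of up to 6.25% by the floor of 3 cells and 7.40% by the exact interval. Over the 39 cells with at least 5000 counts the exact interval reaches 9.03%. Of the 11 mAG+ counts, 4 lay in the cell with B cell transcripts, and the only mKO2neg count lay in the cell with Camp. At 3.94 CPM, mAG+ was 1.23-fold above mKO2high with the latter set to a floor of 3 counts over the gate, but the interval of their log2 ratio starts at -0.25 and does not exclude equality. Nor does that of mAG+ to mKO2neg (2.03, -0.12 to 8.09), and without the 3 marker-rich cells only 7 counts were left, too few for a ratio. Gm37010 overlaps Cd48 on the same strand.

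**Figure D3:**
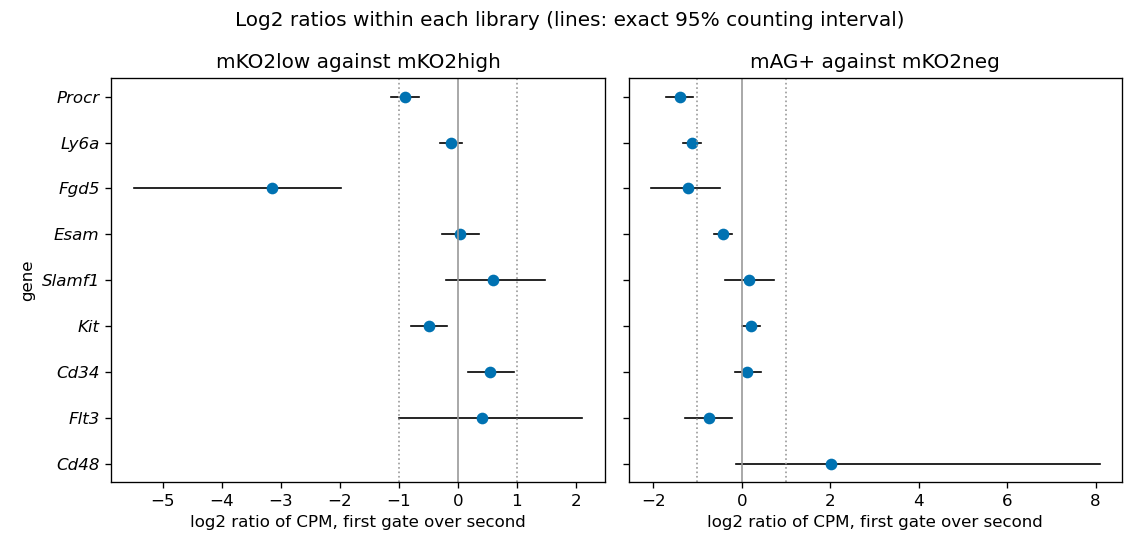
Log2 ratios of CPM within each library for the genes with at least 10 counts over both gates, as points with exact conditional binomial 95% intervals (lines). Dotted lines mark 2-fold and the solid line equality. Procr, Ly6a and Fgd5 lie past 2-fold on the lower side in mAG+ against mKO2neg, at -1.40, -1.13 and -1.23, and only Fgd5 does in mKO2low against mKO2high.

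Read together and with 2-fold as the call, the 9 genes stood as follows within libraries. For mKO2low against mKO2high, 8 genes had at least 10 counts over both gates, with 4 higher and 4 lower. Of the 8, 0 were at least 2-fold higher, where 19.6% of 10901 genes were, and 1 was at least 2-fold lower (Fgd5), where 15.0% were. Their median log2 ratio was -0.04, against 0.05 over all genes tested. For mAG+ against mKO2neg, all 9 were measured and 5 were lower. One was at least 2-fold higher (Cd48), where 21.2% of 12115 genes were, and 3 were at least 2-fold lower (Procr, Ly6a and Fgd5), where 14.6% were. The median was -0.43, against 0.06 over all genes. Without the 3 cells rich in B cell or neutrophil markers it was -0.51 over 8 genes, since Cd48 then had under 10 counts, and Ly6a was no longer past 2-fold.

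Across libraries, gate and library cannot be told apart. For mKO2neg against mKO2low, 2 of 8 genes were at least 2-fold higher (Flt3 and Fgd5), against 15.3% of 11375 genes, and 0 were at least 2-fold lower, against 16.7%. The median was 0.19, against 0.01. For mAG+ against mKO2high, 3 of 9 were at least 2-fold lower, against 17.1% of 11849 genes. They were Procr at -2.46 (-2.76 to -2.19), Ly6a at -1.65 (-1.87 to -1.44) and Fgd5 at -1.47 (-2.37 to -0.67). At least 2-fold higher were Flt3 at 1.77 (0.66 to 3.36) and, by its fitted ratio alone, Cd48, against 26.2% of genes. With Cd48 at its floor, 1 gene was past 2-fold and the median stayed at 0.27, against 0.12 over all genes. This median turned to -0.09 at 5000 counts a cell, over 6 genes, and to -0.02 when all cells were weighted equally, over 8 genes. With only cells of at least 5000 counts weighted equally it was 0.28. Esam was at 0.30, Kit at 0.24, Cd34 at 0.27 and Slamf1 at 0.63, all above that shift of all genes. At equal depth Esam was at -0.13 and Kit at -0.04, and Cd34 at 0.98 and Slamf1 at 1.95, the last from 2 and 12 counts. These comparisons share gates with those within libraries, so their values are not separate evidence.

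Within cells, the markers were combined in much the same numbers in every gate once depth was equal. At each cell's own depth the median cell had a count in 4, 4, 4 and 5 of the 9 genes. At 5000 counts it had a count in 2, 3, 3 and 2. A count in at least 4 genes was then found in 7 of 39 mKO2high cells, 10 of 48 mKO2low cells, 9 of 43 mKO2neg cells and 6 of 45 mAG+ cells. Procr and Ly6a were counted together in 45 of 175 cells at this depth, with Procr in 66 and Ly6a in 102. Their Spearman correlation across cells was 0.11 to 0.26 within gates, positive in all 4 but weak. Flt3 was counted in 10 cells, of which 2 also had Procr. With counts this sparse, a pair that was not seen together says little about the cell.

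**Figure D4:**
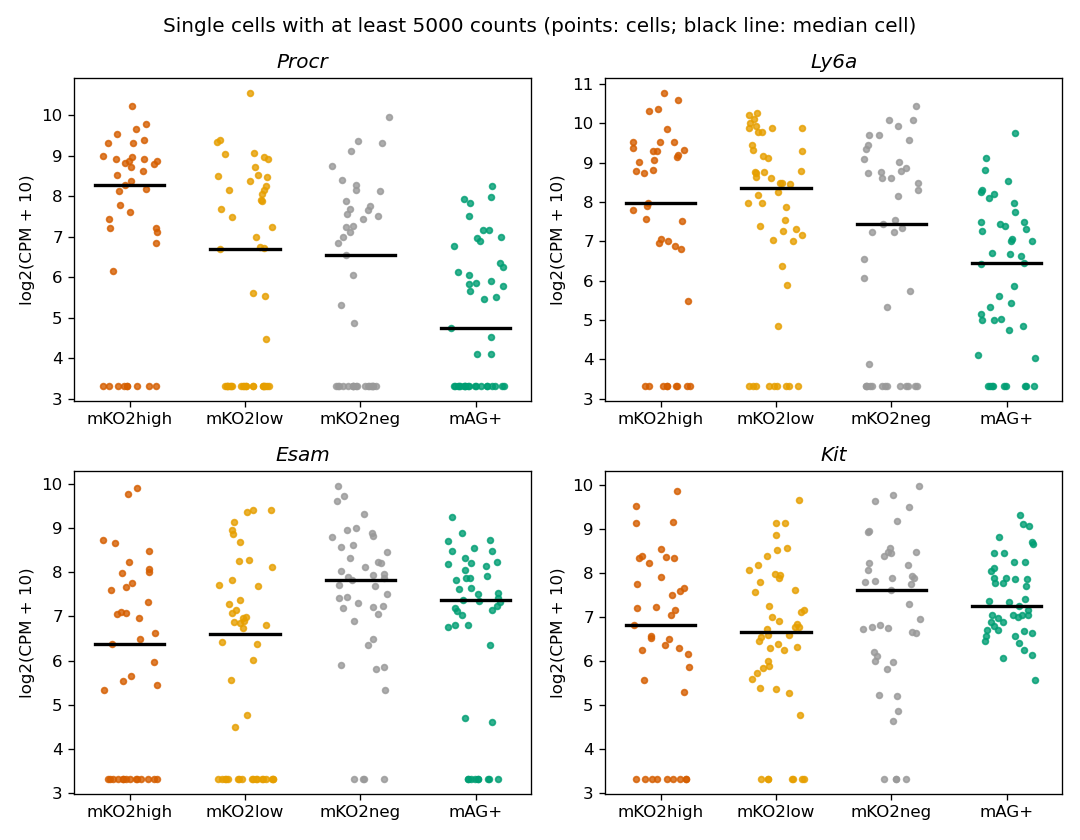
Procr, Ly6a, Esam and Kit in single cells with at least 5000 counts, as log2(CPM + 10) at each cell's own depth (points), with the median cell of each gate (black lines). Cells without a count form the bottom row. The cloud of Procr moves down from mKO2high to mAG+, and that of Kit has a similar median in all gates.

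For Esam, Ly6a and Kit, the 3 genes counted in at least 25% of cells of every gate at equal depth, the genes with the most similar pattern over cells were looked up among 1520 genes. The mean Spearman correlation within the 4 gates was at most 0.26. For Ly6a the nearest were Pdcd4 (0.26), B2m (0.26) and Chrac1 (0.25), for Esam Uba1 (0.25), Rae1 (0.24) and Brk1 (0.22), and for Kit Hibadh (0.25), Zpr1 (0.24) and Cetn2 (0.21). Correlations of this size, the highest of many, are no finding. None of the 9 genes was among them.

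Other surface genes of stem and progenitor cells were more often higher than lower in mAG+ against mKO2neg. Of 49 on the list, 42 had counts enough for this comparison, with 27 higher and 15 lower, where 52.8% of all genes were higher. The median log2 ratio was 0.11. At least 2-fold higher were 6 and lower 2, where 21.2% and 14.6% of all genes were. Against mKO2high, 19 were higher and 23 lower, with a median of -0.03, where 54.3% of all genes were higher. Past 2-fold were 14 higher and 8 lower, where 26.2% and 17.1% of all genes were, so all genes leaned the same way. The most abundant differed among themselves. Cd63, a tetraspanin, was at 713, 723, 519.7 and 345 CPM in mKO2high, mKO2low, mKO2neg and mAG+ and Cd81, another, at 775, 436, 525 and 397. Adgrg1, an adhesion receptor, was at 1242, 1013, 891 and 862 CPM. All 3 were lowest in mAG+, by log2 ratios to mKO2high of -1.04 for Cd63, -0.97 for Cd81 and -0.53 for Adgrg1. Cd9 and Eng were lower in mKO2low and in mKO2neg respectively than in the other gates.

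Genes enriched in stem cells that are not surface markers were set beside these. Of 12, 7 were lower in mAG+ than in mKO2neg, where 47.2% of all genes were, and 3 were lower by at least 2-fold, where 14.6% were. Against mKO2high, 10 of 12 were lower, where 45.7% of all genes were, and 4 by at least 2-fold, where 17.1% were. The medians were -0.32 and -0.76. Ifitm1, an interferon-inducible membrane-associated protein, was at 3807, 2856, 2365 and 998 CPM in mKO2high, mKO2low, mKO2neg and mAG+. Pdzk1ip1 was at 842, 621, 513 and 248 and Mllt3, a chromatin reader, at 645, 314, 342 and 199.5. These took an order like that of Procr, highest in mKO2high and lowest in mAG+. Hlf, a transcription factor of stem cells, did not: it was at 198, 322, 292 and 322 CPM, higher in mAG+ than in mKO2high (log2 ratio 0.70, 0.47 to 0.94).

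**Figure D5:**
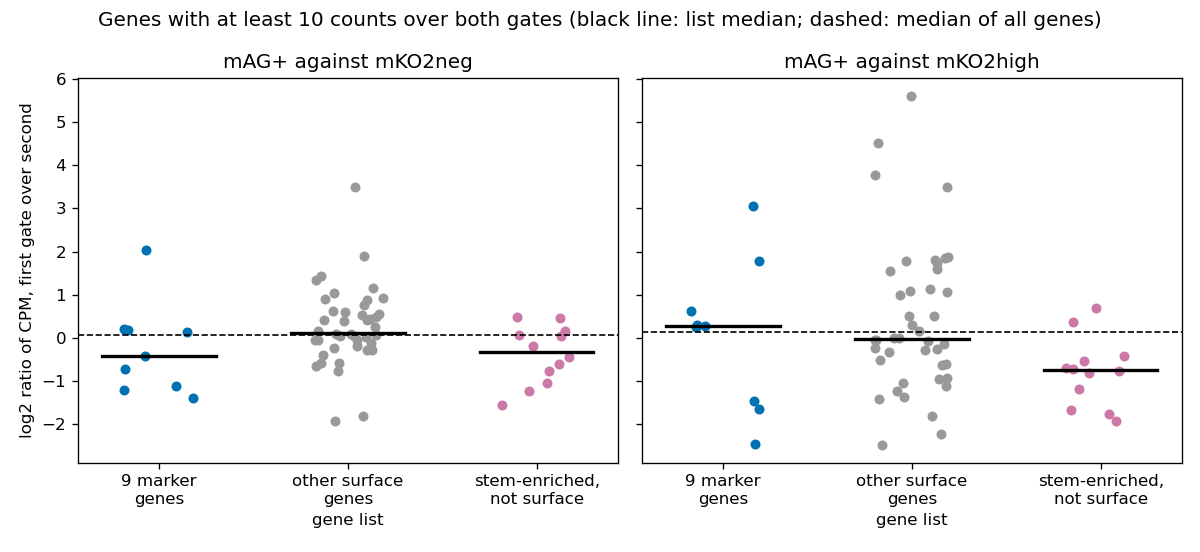
Log2 ratios of single genes (points) for mAG+ against mKO2neg (left) and mAG+ against mKO2high (right). The lists are the 9 markers, the other surface genes and the stem-enriched genes that are not surface markers. Black lines are list medians (-0.43, 0.11 and -0.32 on the left, 0.27, -0.03 and -0.76 on the right), the dashed line is the median of all genes tested, and genes without counts in 1 gate are at their fitted ratio.

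Relatives and ligands of the receptors were sparse. In the SLAM family Cd84 was the best counted, at 82.4, 98.0, 92.6 and 68.8 CPM, Slamf7 had no count, and in mAG+ against mKO2neg 4 of 9 genes were measured, with 2 higher and 2 lower. Of the kinases related to Kit and Flt3, Csf1r had 0, 0, 1 and 3 counts and Pdgfra none. Kitl, the ligand of Kit, had 1 count in all cells, and Proc, the ligand of EPCR, had 3. Flt3l, the ligand of Flt3, was at 51.4, 21.1, 20.5 and 8.60 CPM in mKO2high, mKO2low, mKO2neg and mAG+, highest where its receptor was lowest, with a log2 ratio of mAG+ to mKO2high of -2.51 (-3.35 to -1.84). F2r, a thrombin receptor through which activated protein C bound to EPCR signals, was at 18.2, 51.7, 32.9 and 30.8 CPM. Of 10 measured ligands and partners, 4 were higher and 6 lower in mAG+ than in mKO2neg, with a median of -0.07. Ptpn6, a phosphatase that restrains Kit signalling, hardly varied, at 220.5, 249.5, 269.8 and 241 CPM.

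Markers of other cells moved with some of these orders. The megakaryocyte list, also highest in mKO2high and lowest in mAG+, summed to 380.1, 181, 215 and 111 CPM in mKO2high, mKO2low, mKO2neg and mAG+. Its genes differed: Pf4 was at 187, 52.8, 42.9 and 16.5 CPM, while Gp9 was highest in mKO2neg, at 138, and Itga2b lowest there, at 31.7. The monocyte list, higher in the library where Flt3 was higher, summed to 4.28, 5.87, 32.3 and 13.3 CPM. Most of this sum was 1 gene, Irf8, at 3.21, 4.70, 31.7 and 8.24 CPM, with Csf1r nearly at 0. The neutrophil list summed to 449.7, 508, 794 and 433 CPM and the B cell list to 81.4, 102, 106 and 199. The T and NK cell list summed to 0, 29.9, 29.8 and 38.3, the erythroid list to 241, 344, 153 and 252, the dendritic cell list, which includes Flt3 itself, to 212, 208, 134 and 187, the stromal list to 3.21, 1.17, 18.0 and 14.0 and the mast cell list to at most 0.72. The part of these cells in the marker values was not tested, beyond the values without the 3 cells. Genes of dividing cells, summing to 89.9, 183, 486 and 3114 CPM, had the order opposite to that of the gate sums of Procr and Ly6a.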

How the data were processed

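Single cells were sorted into lysis buffer and processed with a modified Smart-seq2 method that enriched 3′ ends, per the labels' protocols. The deposited values are whole-number counts per gene and cell, not normalized. HISAT2, HTSeq 0.11.3, Seurat and mm10 are named, with no role or order, per the submitters' processing notes. The annotation release, strand setting, filters and use of molecular identifiers are not stated in the sources used here. The gate of each cell came from the deposited cell table, whose mKO2hi was taken as mKO2high; no cell name was shared between libraries.

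Of 53378 rows, 53273 were found in GENCODE M21, and 105 rows with 0.222% of counts were not. Each gene was read from the row before it in that order. Counts were summed per gate. Log2 ratios used a prior count of 1 and needed at least 10 counts over both gates, and a ratio of 2-fold was the call. Intervals were exact Poisson for CPM, Clopper-Pearson for shares and conditional binomial for ratios. The floor for a gene or share at 0 was 3 counts, or 3 cells. Thinning was 1 random draw. All 9 genes are named, and of each list up to 6 genes with the most counts, with a few genes beyond this rule named for their role after their values were seen. Some genes of the lists are not reported here. The genes and lists were chosen with earlier results of these data known. Doublets were not called. Alternatives were TMM (edgeR) and DESeq2 size factors, equal cell weights, a cell filter, thinning, cells left out, no count filter, another prior count and the rows under the labels. Python 3.11.15, numpy 2.4.6, pandas 2.3.3 and scipy 1.17.1 were used, and the ratio and thinning steps were tested on simulated data.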

Additional observations from a re-analysis of the deposited data

How the results depend on the processing

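Each gate is 1 sample, so no value has a replicate check, and gates of different libraries cannot be told apart from the libraries. Of 48 alternative medians of the 9 genes, 40 stayed within a range around the reported value and 8 moved outside it. The range runs from the median of the single genes' lower interval bounds to the median of their upper bounds. It is not an interval of the median itself. Of the 48, 7 had the opposite sign to the reported median. For mAG+ against mKO2neg the median was -0.80 with cells weighted equally and -0.56 when only cells of at least 5000 counts were. It was -0.64 at 5000 counts a cell and -0.63 without each gene's cell of highest CPM in each gate. For mKO2neg against mKO2low it was 0.64 with cells weighted equally, and -0.13 when the filter on low counts was dropped, which adds Cd48. Under the genes' own labels few genes had counts enough. Their median was -1.14 in mKO2low against mKO2high. It was -0.94 in mAG+ set against mKO2neg, and -0.84 when set against mKO2high. TMM and DESeq2 scaling could hardly move a value, with TMM factors of 0.990 to 1.01.

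Of 371 alternative ratios of single genes, 20 changed sign. For 12 of these the reported interval included 0. The other 8 were Kit for mAG+ against mKO2neg, at -0.58 with cells weighted equally, -0.25 when only cells of at least 5000 counts were so weighted, -0.56 at 5000 counts and -0.014 without the deepest cells, Esam for mAG+ against mKO2high, at -0.13 at 5000 counts and -1.41 under its own label, Flt3 for mKO2neg against mKO2low, at -2.26 under its own label, and Cd34 for mKO2neg against mKO2low, at 0.022 with cells of at least 5000 counts weighted equally. The rows under the labels Esam and Flt3 are read as those of other genes, Vsig2 and Gm26597. The cause of the other changes was not tested. Another 37 ratios had under 10 counts in the alternative and give no value. The equal weighting of deeper cells was chosen after the data were seen. Among genes with at least 50 counts over both gates, fewer were past 2-fold. In mKO2low against mKO2high 12% were higher and 9.77% lower. In mAG+ against mKO2neg the shares were 15.3% and 10.1%, and in mKO2neg against mKO2low 9.68% and 9.98%. In mAG+ against mKO2high they were 20.2% and 12.9%. Fgd5, Slamf1, Flt3 and Cd48 had too few counts for a firm order of gates at equal depth. No paired analysis was possible because each gate is 1 sample.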
